A study of Mus musculus with 24 samples.

Results

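The growth hormone to STAT5 axis of the liver was followed through 10 genes, chosen by name for their places in this pathway, of the 25746 genes counted in each library. The genes were chosen with earlier results of these data known. They comprised the growth hormone receptor Ghr, the transducers Stat5a and Stat5b, the feedback inhibitors Socs2 and Cish, the secreted products Igf1 and Igfals, and the transcription factors Bcl6, Cux2 and Onecut1. All 10 passed the filter on low counts, which 12330 genes passed. The series holds liver RNAseq libraries from 24 mice at 12 weeks of age, 1 library per mouse, with 6 males and 6 females of each genotype. In knockout (KO) mice the cluster of major urinary protein (Mup) genes, which encode abundant pheromone carriers secreted by the liver, had been deleted with CRISPR/Cas9, and wildtype (WT) mice carried the intact cluster on the same background (C57BL/6N, given as C57/BL6N in the labels). The groups are called mWT, mKO, fWT and fKO, with m for male and f for female. The labels name no treatment, and all KO mice descended from a single founder male through heterozygous matings, so that the KO groups represent 1 deletion allele.

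Growth hormone binds its receptor on hepatocytes, the associated kinase JAK2 is activated, and STAT5A and STAT5B are phosphorylated, form dimers and bind DNA at a motif with the core TTCNNNGAA. Their targets include Igf1 and Igfals, whose products circulate together with an IGF binding protein, and Socs2 and Cish, whose products damp the receptor signal. In mice the pituitary releases growth hormone in separate pulses in males and more continuously in females, and liver STAT5 activity follows this pattern. BCL6, a repressor that can occupy STAT5 sites, and CUX2, a factor restricted to female liver, are known to help hold male and female hepatocyte programs apart. Onecut1 (HNF6) is a liver factor that also responds to growth hormone. STAT5 phosphorylation and circulating hormone were not measured here, and all values below are RNA.

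Between 15361901 and 26261394 reads were counted per library, and 3 reads corresponded to at most 0.195 counts per 1000000 counted reads (CPM). The 22 Mup genes summed to 17028 to 37393 CPM in mWT and to between 0 and 11 reads in each KO library, as the genotype labels state. All 6 hepatocyte markers were read in every group, and their sum ranged from 87367 to 143828 CPM. Counts differed between every pair of libraries of a group by more than sampling noise. In bulk liver, fewer cells of a type and less RNA per cell cannot be told apart.

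The letters TTCNNNGAA were searched on both strands of RefSeq windows from 250 bases before to 50 bases after each gene start (GRCm38.p6). At least 1 match was present in 8.3% of 32851 such windows, at least 2 in 0.457% and at least 3 in 0.0335%. Windows were listed for 9 members with 16 start sites, and 8 matches fell in 5 of these windows, belonging to Cish, Bcl6 and Igfals. The stretches of these 3 genes are printed here because they were the only members with a match. The matches are in capitals, and all stretches are written 5′ to 3′ on the strand of the gene.
Cish, chr9:107296654-107296683, plus strand, with matches that begin at the start site and 11 bases downstream: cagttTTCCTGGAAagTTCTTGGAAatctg
Bcl6, chr16:23988952-23988981, minus strand, 5′ of the outer start: tagcaaattagTTCTCAGAAttccagaggc
Bcl6, chr16:23981284-23981533, minus strand, the 250 bases 5′ of the inner start: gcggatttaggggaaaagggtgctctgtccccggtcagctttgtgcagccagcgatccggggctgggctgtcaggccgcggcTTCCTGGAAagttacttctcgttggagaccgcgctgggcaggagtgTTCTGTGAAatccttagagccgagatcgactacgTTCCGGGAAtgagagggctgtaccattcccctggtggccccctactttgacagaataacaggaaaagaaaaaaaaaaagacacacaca
Igfals, chr17:24877597-24877626, plus strand: cgatctataatTTCTCAGAAaagaggctga
Igfals, chr17:24878162-24878191, plus strand: tctgccaggtgTTCCTAGAAgaggccctgg
The Cish stretch lies in an exon of a GENCODE Cish transcript that begins further upstream, the outer Bcl6 stretch lies upstream of the gene, and the other Bcl6 and Igfals stretches lie between annotated exons of their genes. A match is a description of letters, and binding was not measured in these mice.

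In GRCm38.p6, Ghr spans chromosome 15 from 3317760 to 3583492, and Stat5a (100859351 to 100885169) and Stat5b (100780731 to 100850724) are neighbours on chromosome 11. Socs2 (95385362 to 95417180) and Igf1 (87858265 to 87937042) lie on chromosome 10, and Cish (107296026 to 107302784) and Onecut1 (74861921 to 74891781) on chromosome 9. Igfals lies on chromosome 17 (24865997 to 24882010), Bcl6 on chromosome 16 (23965052 to 23988852) and Cux2 on chromosome 5 (121856366 to 122050102). All are protein-coding genes.

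Per kilobase of exon, Igf1 and Ghr were the most abundant of the 10 transcripts, at 79.8 ± 11.6 and 73.0 ± 10.3 CPM per kilobase (SD over 24 mice). These neighbours overlapped in their ranges. Igfals (19.0), Onecut1 (14.8) and Stat5b (7.91) followed in CPM per kilobase, and Cish (3.82), Bcl6 (3.42), Socs2 (2.39), Stat5a (1.25) and Cux2 (1.22) were the lowest. The means of the last group rested on wide ranges between mice, and for Cux2 on females alone.

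**Figure D1:**
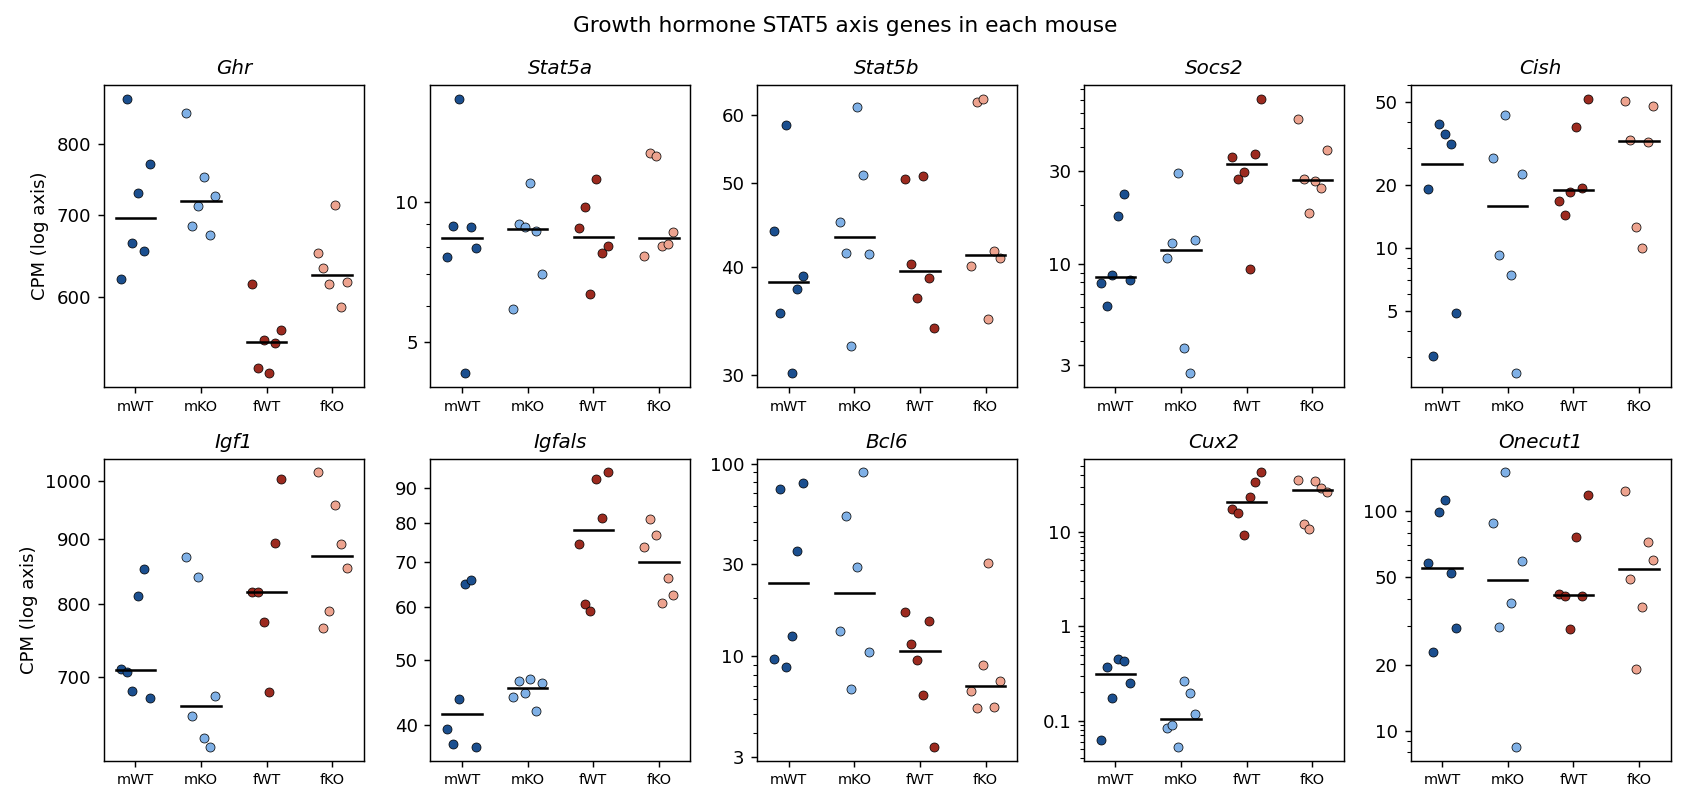
Level of each gene in every mouse, in CPM on log axes that differ between panels; each point is 1 mouse, bars are group medians, and each group holds 6 mice. Cux2 separates the sexes, and Cish and Onecut1 spread widely in every group, as does Bcl6 except in fKO, where 5 of 6 mice lie between 5.39 and 8.99 CPM and mouse 4 at 30.6.

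Deletion of the Mup cluster was compared with WT within each sex. None of the 10 genes passed an adjusted p of 0.05 in males or in females with edgeR's quasi-likelihood test and Benjamini-Hochberg adjustment over 12330 genes, and none did so with DESeq2. Of all genes tested, 0.211% were called in males and 0.0892% in females, so that at this background a count of 0 among 10 genes carries little information on its own. At an unadjusted p under 0.05, 0 of 10 members passed in males and 1 of 10, Ghr, in females, where 10.6% and 4.87% of all genes did. The median log2 fold change of the 10 was -0.07 in males and 0.07 in females, beside -0.0021 and -0.0026 over all genes. No member had non-overlapping KO and WT groups in either sex, against 1.09% of genes in males and 0.349% in females.

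Ghr, which encodes the receptor, ranged from 621 to 872 CPM in mWT (median 697) and from 674 to 849 CPM in mKO (median 719). Among females the median was 552 CPM in fWT, with mice between 520 and 615, against a median of 626 in fKO, with mice between 589 and 713. The female groups overlapped only between the highest WT mouse and the lower KO mice. The difference was 0.20 ± 0.08 (log2, SE) in females, with an unadjusted p of 0.0176 and an adjusted p of 0.929 in edgeR's test, and 0.03 ± 0.08 in males. Whether the effect differed between the sexes was tested as an interaction, which gave -0.17 ± 0.11 (adjusted p = 0.88, edgeR).

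Stat5b, the main STAT5 form of hepatocytes, had group medians of 38.4 CPM in mWT, 43.3 in mKO, 39.6 in fWT and 41.4 in fKO. Stat5a had medians of 8.40, 8.77, 8.44 and 8.40 CPM in the same order. Both transducers thus lay at similar levels in all 4 groups. Their 95% intervals for the KO effect reached from -0.20 to 0.51 for Stat5b in males and from -0.58 to 0.36 for Stat5a in males, on the log2 scale. Stat5a and Stat5b are near-identical paralogs in places: 3.44% of the 100-base stretches of Stat5a transcripts occur in Stat5b transcripts, so that reads of this length could be exchanged or lost. Stat5a also shares 72 exon bases with Stat3 on the opposite strand, where reads cannot be assigned without the strand setting of the counting, which is not given in the sources used here.

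For the 2 secreted products the intervals were narrow. The KO effect on Igf1, the growth factor through which much of growth hormone's action on body growth runs, was -0.05 ± 0.10 in males and 0.08 ± 0.10 in females (log2, SE). For Igfals, whose product stabilises IGF1 in the circulation, it was -0.10 ± 0.14 and -0.14 ± 0.14. A change in Igf1 beyond 0.29 on the log2 scale in either direction lay outside both 95% intervals.

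For Cish, Bcl6, Onecut1 and Socs2 the intervals were wide. In males the 95% interval of the KO effect reached from -1.55 to 1.06 for Cish, from -1.5 to 1.28 for Bcl6, from -1.16 to 1.16 for Onecut1 and from -1.05 to 1.08 for Socs2, on the log2 scale. In females the bounds were -1.06 and 1.5 for Cish, -1.47 and 1.51 for Bcl6, -1.12 and 1.21 for Onecut1 and -1.13 and 0.85 for Socs2. A difference of 2-fold in either direction therefore lay within the male intervals of all 4 genes and the female intervals of Cish, Bcl6 and Onecut1. In these comparisons a change of that size was not excluded. Cux2 was at or under 3 reads in 2 of 6 mWT and 5 of 6 mKO libraries, so that no KO effect is given for it in males, and in females the effect was 0.06 ± 0.31. No member passed the test of the interaction between genotype and sex, in which 0.00811% of genes were called, 0 members passed an unadjusted p of 0.05 (5.96% of all genes did) and DESeq2 called none.

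**Figure D2:**
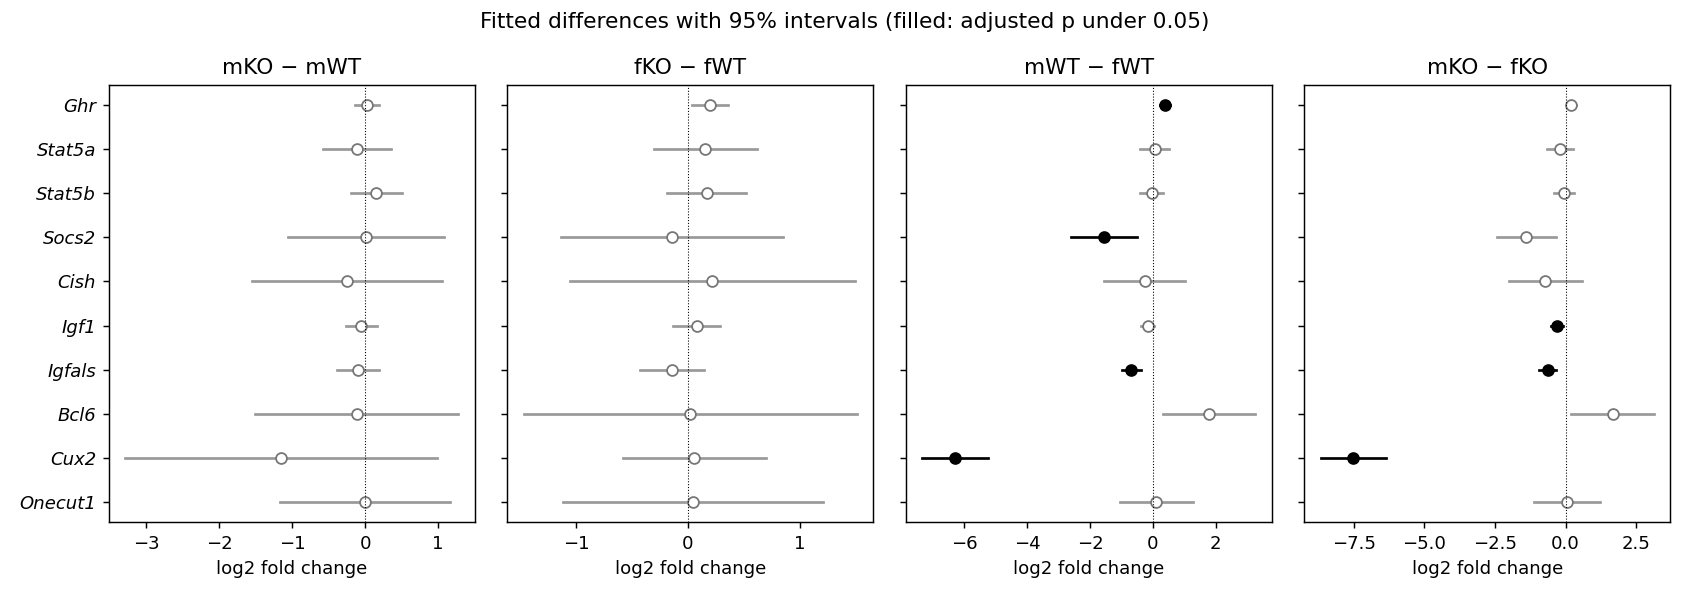
Fitted log2 fold change with its 95% interval for each gene in 4 comparisons (horizontal axes differ in range); filled points passed an adjusted p of 0.05 in edgeR's quasi-likelihood test. The 2 KO comparisons hold no filled point, and the sex comparisons hold 4 in WT and 3 in KO. The Cux2 interval for mKO against mWT rests on 1 to 9 reads per library.

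The sexes were then compared within each genotype. In WT mice 4 of 10 members passed the adjusted threshold, with Cux2, Igfals and Socs2 lower and Ghr higher in males. Of all genes 17.3% were called, 8.51% higher and 8.81% lower in males. In KO mice 3 of 10 passed, with Cux2, Igfals and Igf1 lower in males, at a background of 14.4%, or 7.26% higher and 7.13% lower. At an unadjusted p under 0.05, 5 members passed in WT and 6 in KO, against 30.6% and 28.4% of all genes. Groups did not overlap for 2 members in WT (Cux2 and Ghr) and 2 in KO (Cux2 and Igfals), against 7.7% and 7.26% of all genes. The WT and KO comparisons use different mice.

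Cux2 showed the widest sex gap of the 10. It had 1 to 9 reads per library in mWT and 1 to 5 in mKO, against 197 to 961 in fWT and 204 to 739 in fKO. In CPM the fWT median was 20.6 (9.40 to 42.7) and the fKO median 27.8 (10.9 to 35.7), and no male exceeded 0.454. No male library came near any female library. The log2 difference, male minus female, was -6.30 ± 0.50 in WT (adjusted p = 5.29e-09, edgeR) and -7.50 ± 0.55 in KO (adjusted p = 1.7e-09, edgeR), and its size depends on a few reads per male library.

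Socs2, a feedback inhibitor whose loss is known to enlarge mice, ranged from 6.04 to 23.0 CPM in mWT (median 8.54) and from 9.44 to 71.0 in fWT (median 32.8). In KO mice it ranged from 2.72 to 29.3 in males (median 11.7) and from 18.2 to 55.7 in females (median 27.1). Most females lay above most males, with overlap in both genotypes. The log2 difference was -1.55 ± 0.50 in WT (adjusted p = 0.0377, edgeR) and -1.39 ± 0.50 in KO (adjusted p = 0.0671, edgeR). The WT call rested on single mice: it was lost when mWT mouse 1, 2, 3 or 6 or fWT mouse 1, 5 or 6 was left out, with adjusted p (edgeR) between 0.0565 and 0.103. In KO mice the difference was called without mKO mouse 3 (adjusted p = 0.0144, edgeR), without fWT mouse 4 (0.0477) and by DESeq2 (0.0362).

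Igfals ranged from 37.1 to 65.8 CPM in mWT (median 41.6) and from 59.1 to 95.1 in fWT (median 78.0). In mKO all 6 mice fell between 42.0 and 46.8, and in fKO between 60.8 and 81.0. Only the WT groups overlapped, through mWT mice 4 and 5. The log2 difference was -0.68 ± 0.14 in WT (adjusted p = 0.00133, edgeR) and -0.64 ± 0.14 in KO (adjusted p = 0.00251, edgeR). It was called in all fits that left out 1 mouse.

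Igf1 lay at medians of 709 CPM in mWT, 664 in mKO, 817 in fWT and 873 in fKO. All groups overlapped with one another. In KO mice the log2 difference of -0.30 ± 0.10 passed narrowly (adjusted p = 0.0467, edgeR), and in WT mice -0.17 ± 0.10 did not (adjusted p = 0.271, edgeR). The call in KO mice was lost in 15 of 24 fits that left out 1 mouse, namely mWT 1, 3 or 6, mKO 2, 4, 5 or 6, fWT 1, 2, 3 or 5, or fKO 1, 4, 5 or 6, with adjusted p (edgeR) between 0.05 and 0.115. The interaction for Igf1 was -0.13 ± 0.14, so that the 2 sex differences were not shown to differ.

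Ghr was the only member higher in males by the test, and only in WT mice. The WT difference was 1.30-fold, or 0.37 ± 0.08 on the log2 scale (adjusted p = 0.0014, edgeR), with every mWT mouse above every fWT mouse. In KO mice it was 0.20 ± 0.08 (adjusted p = 0.0833, edgeR). The interaction given above for Ghr is the test of the difference between these values, and it did not pass.

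Bcl6, the repressor, had mean levels of 36.6 ± 32.4 CPM in mWT and 10.5 ± 5.23 in fWT (SD, n = 6). The log2 difference was 1.80 ± 0.70 in WT (adjusted p = 0.0849, edgeR; 0.0355 in DESeq2) and 1.66 ± 0.70 in KO (adjusted p = 0.125, edgeR). In KO mice it passed when fKO mouse 4, whose Bcl6 level was 30.6 CPM against at most 8.99 in the other 5 fKO mice, was left out (2.32, adjusted p = 0.0414, edgeR). Cish, Onecut1, Stat5a and Stat5b were not called between the sexes in either genotype, with log2 differences from -0.72 (Cish in KO) to 0.10 (Onecut1 in WT).

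Some markers of other liver cells differed between the sexes. Of the 6 markers per list that were tested, 3 Kupffer cell, 2 stellate cell and 3 sinusoidal endothelial markers were called lower in mWT than in fWT. Called or not, all 6 markers of each of these lists had lower fitted values in males in both genotypes. The summed Kupffer markers ranged from 67.9 to 135 CPM in mWT and from 121 to 225 in fWT, the stellate sum from 168 to 304 and from 255 to 331, and the endothelial sum from 125 to 155 and from 141 to 190. The sexes overlapped in all 3 of these WT sums. In KO mice the Kupffer sum ranged from 64.9 to 183 CPM in males and from 102 to 183 in females. The stellate sum ranged from 174 to 246 and from 217 to 331, and the endothelial sum from 126 to 154 and from 131 to 189. All 3 sums again overlapped between the sexes in KO mice. In these mice 0 Kupffer, 3 stellate and 1 endothelial marker passed (edgeR; DESeq2 gave the same 3 counts, and 2 Kupffer markers had an unadjusted p under 0.05). Of the 3 cholangiocyte and 3 lymphocyte markers tested (6 listed each), 1 of each list was lower in mWT than in fWT and 0 passed in KO (edgeR; DESeq2 called 1 cholangiocyte marker, and 2 and 1 had an unadjusted p under 0.05). Of 6 hepatocyte markers, 0 passed in WT (edgeR, DESeq2 and an unadjusted p under 0.05 alike) and 1 was higher in males in KO. Beside these marker counts, 17.3% of all genes were called between the sexes in WT and 14.4% in KO. No marker was at 0 reads across a group, and the part of the markers in the sex differences of the members was not tested.

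Cish, Bcl6, Onecut1 and Socs2 varied between mice of the same group far more than most genes. Their pooled SD of log2 CPM within groups lay at the 99.9th (Cish, 1.19), 99.9th (Bcl6, 1.17), 99.7th (Onecut1, 1.02) and 99.6th (Socs2, 0.88) percentile of the 12330 genes, whose median SD was 0.19. Cux2 (0.56, 98.0th), Stat5a (0.39, 92.1st), Stat5b (0.31, 82.0th) and Igfals (0.26, 70.7th) also lay above that median. Ghr (0.13) and Igf1 (0.18) were below it, at the 17.3rd and 44.5th percentile.

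Cish took values of 19.2, 3.05, 39.2, 35.1, 31.4 and 4.90 CPM in mWT mice 1 to 6, and of 26.9, 9.24, 43.3, 7.41, 2.52 and 22.6 in mKO mice 1 to 6. Bcl6 took values of 9.75, 73.5, 8.79, 12.8, 35.3 and 79.3 CPM in mWT and of 13.5, 53.2, 6.75, 29.0, 90.0 and 10.6 in mKO, in the same order. Mice with the lowest Cish held the highest Bcl6 in both male groups. Onecut1 took values of 58.0, 22.7, 99.5, 112, 52.5 and 29.3 CPM in mWT and of 88.3, 29.8, 150, 38.1, 8.42 and 59.5 in mKO. The mice low in Cish were also low in Onecut1. Within mKO the range from lowest to highest mouse spanned 17.2-fold for Cish, 13.3-fold for Bcl6 and 17.9-fold for Onecut1.

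No female reached the lowest Cish or the highest Bcl6 of the males. In females Cish took values of 16.8, 14.4, 18.6, 37.9, 19.3 and 51.7 CPM in fWT and of 50.3, 32.6, 12.7, 10.04, 32.0 and 47.6 in fKO. Bcl6 took values of 17.1, 11.6, 9.59, 6.31, 15.3 and 3.38 CPM in fWT and of 6.59, 5.39, 8.99, 30.6, 5.48 and 7.48 in fKO. The fKO mouse with the lowest Cish, mouse 4, held the highest Bcl6. Whether males spread more than females was tested for each of the 10 genes on the deviation of log2(CPM + 0.5) from the group median (two-sided permutation test, 12 males against 12 females). None passed after adjustment over the 10 tests. Bcl6 deviated by 1.20 in males and 0.57 in females (permutation p = 0.0166, adjusted 0.0832), and Cux2 by 0.19 and 0.57 (permutation p = 0.0127, adjusted 0.0832), where the pseudocount damps the male values. At an unadjusted p under 0.05 these were the 2 members that passed. Without fKO mouse 4 both passed (adjusted p = 0.0187 for Bcl6 and 0.0443 for Cux2, permutation), and without fKO mouse 5 Cux2 did (adjusted p = 0.0411, permutation).

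Covariation between members was tested on log2(CPM + 0.5) after subtracting each group's mean, over 24 mice, with permutation within groups (two-sided, 8 pairs). In 4 of 8 pairs the adjusted p was under 0.05. The strongest was the inverse relation of Cish and Bcl6, with Pearson's r of -0.87 (permutation p = 1e-05, the smallest that 100000 resamples give, adjusted 8e-05) and Spearman's rho of -0.84 (permutation p = 1e-05). It was present in each group on its own, with r of -0.83 in mWT, -0.95 in mKO, -0.91 in fWT and -0.76 in fKO (exact permutation p = 0.0458, 0.00833, 0.0208 and 0.0347). Without the 2 mice farthest from the median of Cish, mWT mouse 2 and mKO mouse 5, r was -0.83.

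Bcl6 and Onecut1 were inversely related (r = -0.81, permutation p = 2e-05, adjusted 8e-05; rho = -0.82, permutation p = 2e-05), with r from -0.95 to -0.41 within groups, and r was -0.78 without mKO mouse 5 and fKO mouse 4. Socs2 and Igf1 rose and fell together (r = 0.78, permutation p = 0.00014, adjusted 0.000373; rho = 0.71, permutation p = 0.00065), with r from 0.64 to 0.95 within groups and 0.71 without mKO mouse 3 and fWT mouse 4. Cish and Socs2, both feedback inhibitors, were positively related (r = 0.63, permutation p = 0.00223, adjusted 0.00446; rho = 0.66, permutation p = 0.00209), although r was only 0.05 in fWT, and 0.51 without mWT mouse 2 and mKO mouse 5.

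The other 4 pairs did not pass, namely Socs2 with Bcl6 (r = -0.40, permutation p = 0.0881, adjusted 0.141), Igf1 with Igfals (r = 0.26, adjusted 0.259), Ghr with Igf1 (r = 0.26, adjusted 0.259) and Ghr with Stat5b (r = -0.22, adjusted 0.339). The receptor transcript was therefore not shown to follow either its transducer or its product. For Socs2 with Bcl6 the values within groups ran from -0.76 in mKO to -0.11 in fWT.

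**Figure D3:**
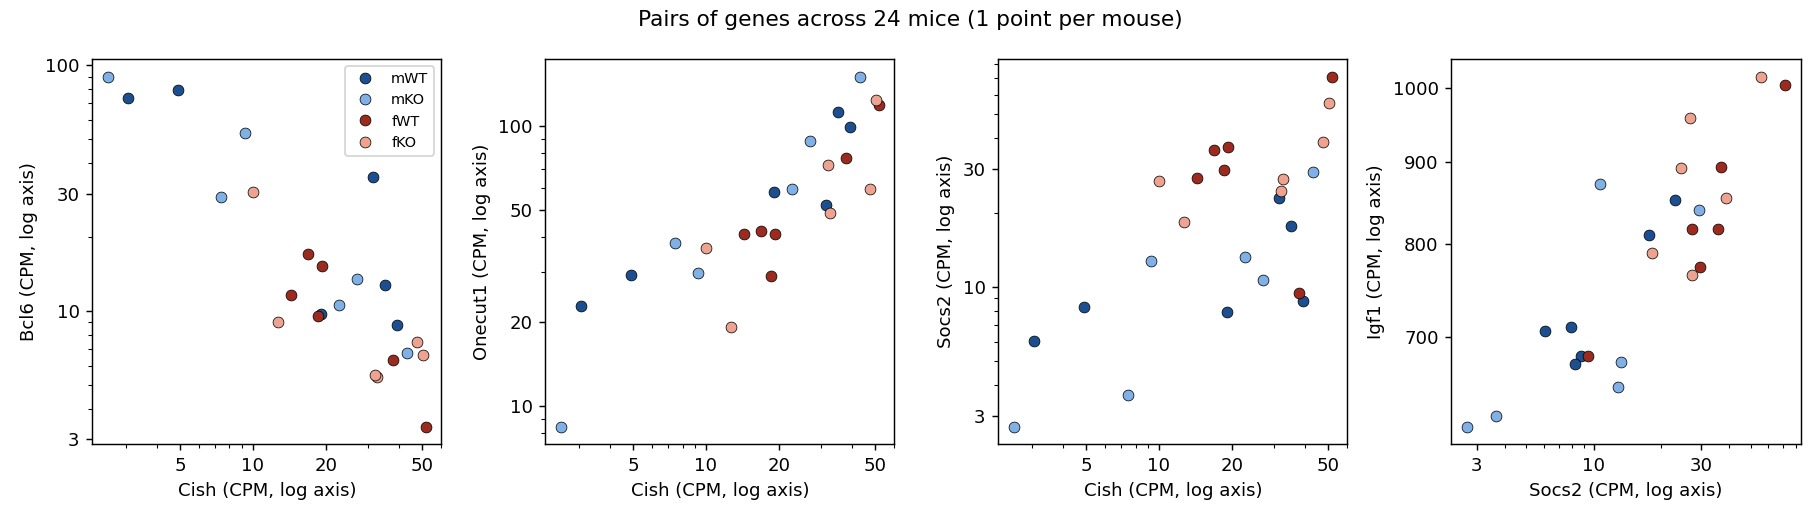
Levels of 4 gene pairs in 24 mice, 1 point per mouse, in CPM on log axes, coloured by group. Bcl6 falls as Cish rises in all groups, Onecut1 rises with Cish, and Socs2 rises with Igf1. Socs2 also rises with Cish, but not in fWT (r = 0.05). The pair of Cish and Onecut1 was picked from all 45 pairs after the data had been seen.

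All 45 pairs of the 10 members were then examined, a set chosen after the data had been seen. In 11 pairs the adjusted p was under 0.05, with 6 positive and 5 negative r, and the 4 pairs above were among them. How often pairs of other genes would pass was not counted, for these or for the pairs above. Cish and Onecut1 had the highest r of the 45, at 0.91 (permutation p = 1e-05, adjusted over 45 pairs 0.000225; rho = 0.91), with r of 0.93 in mWT, 0.98 in mKO, 0.92 in fWT and 0.82 in fKO, and 0.88 without mWT mouse 2 and mKO mouse 5. Stat5a and Stat5b rose together (r = 0.73, adjusted permutation p = 0.00315), with the shared sequence named above. Stat5b was inversely related to Igf1 (r = -0.67, adjusted permutation p = 0.00645) and to Socs2 (r = -0.63, adjusted permutation p = 0.00739). The remaining 3 pairs were Socs2 with Onecut1 (r = 0.62), Igf1 with Onecut1 (r = 0.59) and Stat5a with Igf1 (r = -0.52).

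Several technical and cellular measures moved with these genes across the 24 mice, after the same centring. The total count per library had r of 0.40 with Cish, 0.46 with Onecut1 and -0.36 with Bcl6. The summed cholangiocyte markers had r of 0.48, 0.64 and -0.49 with the same genes, while spanning only 30.5 to 56.7 CPM over all mice. Spp1 made up most of that sum, with means of 32.0 CPM in mWT and 42.1 in fWT. Each other listed cholangiocyte marker averaged at most 1.76 CPM, so the sum mostly follows 1 gene. The edgeR normalization factor had r of -0.51 with Igf1 and 0.44 with Stat5b, and the endothelial marker sum had r of 0.53 with Stat5b and -0.48 with Socs2. The part of these measures in the relations was not tested.

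Total Mup expression, another output that growth hormone is known to raise in male liver, was set against the 10 members over the 12 WT mice after centring by sex. No member passed: r ran from -0.45 (Stat5b) to 0.32 (Ghr), and all 10 adjusted permutation p were 0.977, with 0 under 0.05 before adjustment. Without the 2 WT mice farthest from the median of the member, chosen for each member separately, r ran from -0.79 (Stat5b) to 0.47 (Cux2).

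As a description, the genes outside the list whose log2 level was most like that of a member over all 24 mice were named, and since the sexes differ, likeness includes that shared difference. Cish was most like Foxq1 (r = 0.84), Rgs3 (0.82) and Phlda1 (0.80), and Onecut1 was also most like Foxq1 (0.79), followed by Ikzf4 and B4galt1. Socs2 was most like Fmo2 (0.84), Tgm1 and Gkap1, and Bcl6 most like Entpd5 (0.78), Bdh2 and Oxsm. Cux2 was most like genes that include the female-specific Cyp2b13 (0.98) and Sult3a1 (0.98).

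The wider pathway was read from lists of its genes. Of 19 tested genes of growth hormone receptor signalling, 0 were called for the KO in either sex (edgeR; 3 in males and 0 in females at an unadjusted p under 0.05, DESeq2 0), with the adaptor Grb10 lowest in p in males (-0.67 ± 0.19, adjusted p = 0.152, edgeR). Between the sexes in WT, 2 were higher in males (Socs7, 0.47, and Grb14, 0.29) and 3 lower, among them Socs5 (-0.49) and the insulin receptor substrate Irs2 (-1.21). In KO mice Socs7 and Grb14 were again higher, and Socs5 and Irs2 lower, in males. Of all genes, 17.3% were called between the sexes in WT and 14.4% in KO, so these counts are not particular to the list. For the interaction, 2 genes had an unadjusted p under 0.05, and 0 were called by edgeR or DESeq2. The list's median log2 difference between the sexes was 0.02 in WT and -0.09 in KO.

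Of 8 tested IGF receptors and binding proteins (12 listed), 0 were called for the KO in either sex (edgeR; 1 in males and 0 in females at an unadjusted p under 0.05, DESeq2 0), with Igfbp4 lowest in p in males (-0.19 ± 0.08) and Igfbp3 in females (0.15 ± 0.13). In WT, Igf2r, the receptor that clears IGF2, was higher in males (0.23), and Igfbp5 (-1.06), Igf1r (-0.58) and Igfbp7 (-0.28) were lower. For the interaction Igfbp4 had the lowest p (-0.17 ± 0.11), and 0 genes passed an unadjusted p of 0.05 or were called by either tool. In KO, Igfbp4 (-0.35), Igfbp5 (-1.44) and Igfbp7 (-0.34) were lower in males. The sex calls stand beside 17.3% of all genes in WT and 14.4% in KO. The part of the marker sums above in these differences was not tested.

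Of 20 liver transcription regulators, 0 were called for the KO by edgeR (3 in males and 0 in females at an unadjusted p under 0.05), whereas DESeq2 called 3 in males, among them Esr1 and Trim24, and 0 in females. Trim24, a nuclear receptor cofactor, had the lowest p in males (-0.57 ± 0.14, adjusted p = 0.102, edgeR). For the interaction Esr1, the oestrogen receptor, was lowest in p (-1.39 ± 0.35, adjusted p = 0.745 in edgeR, and called by DESeq2). Between the sexes in WT, Cux1 (0.46), a relative of Cux2, and Foxa3 (0.61) were higher in males, and 4 were lower, among them Trim24 (-1.10), Tox (-1.66) and Onecut2 (-0.38). In KO, Cux1 (0.53) and Foxa3 (0.52) were higher, and Trim24 (-1.82), Esr1 (-2.05) and Tox (-1.51) lower, in males. The share of all genes called between the sexes was 17.3% in WT and 14.4% in KO. For the KO, edgeR called 0.211% of all genes in males and 0.0892% in females. At an unadjusted p under 0.05 in edgeR's test the shares were 10.6% and 4.87%.

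Genes known as male-biased or female-biased outputs of the axis were far apart between the sexes. The lists were chosen for this known bias, and with earlier results of these data known. The sex counts below were therefore largely fixed in advance and are a description. Of all genes, 8.51% were called higher and 8.81% lower in males in WT, and 7.26% and 7.13% in KO. Of 19 male-biased genes tested, 18 were higher in males in WT and 18 in KO, with Sucnr1 the exception in both, and the median log2 difference was 3.89 in WT and 3.13 in KO beside -0.0020 and -0.0045 over all genes. Cyp4a12a, a fatty acid hydroxylase, averaged 347 CPM in mWT and 0.326 in fWT, and 430 in mKO and 1.002 in fKO. Of 20 female-biased genes, 19 were lower in males in both genotypes, with Lifr the exception. Their median log2 difference was -9.59 in WT and -9.86 in KO, so that it was not smaller in KO. For genes near 0 reads in males these values depend on few reads. Cyp2b13 averaged 268 CPM in fWT and was at 0 reads in all mWT mice, which makes it at least 1495-fold higher in females against a floor of 3 reads per library.

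No output gene was called for the KO by edgeR in either sex. In males 2 of 19 male-biased and 2 of 20 female-biased genes had an unadjusted p under 0.05, and in females 3 and 1. DESeq2 called Elovl3 and Cyp2b9 in males and 0 in females. Elovl3, a fatty acid elongase, had the lowest p of the male-biased list in males (1.45 ± 0.39, adjusted p = 0.143, edgeR) with means of 173 CPM in mWT and 474 in mKO. The male-biased list had a median KO effect of -0.02 in males and of 0.30 in females, beside medians of -0.0021 and -0.0026 over all genes. Lowest in p in females was Cyp2d9 (0.71 ± 0.22, adjusted p = 0.929, edgeR), which averaged 39.4 CPM in fWT and 64.3 in fKO. The interaction had a median of -0.47 over the male-biased list and 0.41 over the female-biased list, with 0 genes called by either tool and 2 and 1 at an unadjusted p under 0.05; Susd4 (-1.19 ± 0.38, adjusted p = 0.816, edgeR) and Cyp2b9 were lowest in p. Cyp2b9 had at most 3 reads in a mWT and 19 in a mKO library against a mean of 613 CPM in fWT, so that no KO fold is given for it in males.

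**Figure D4:**
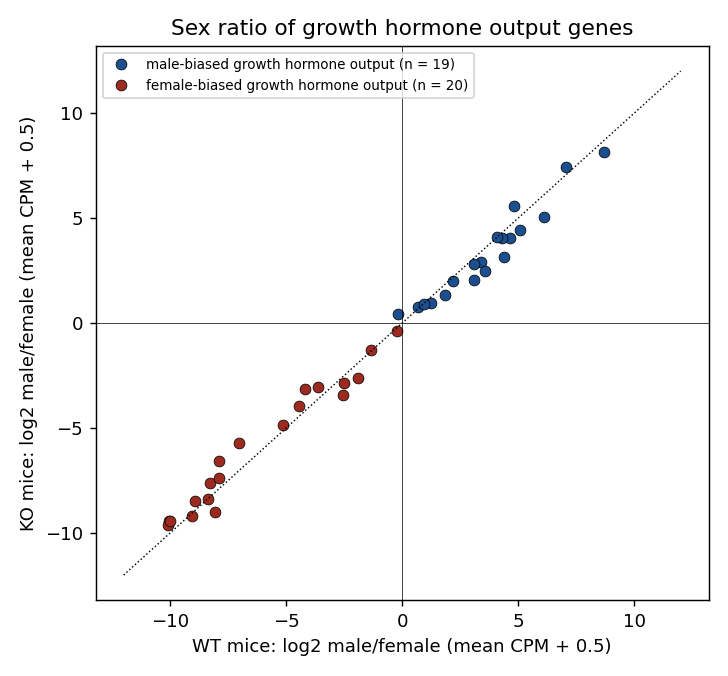
Log2 ratio of male to female mean level, from mean CPM plus 0.5, in WT mice (horizontal) and KO mice (vertical) for 19 male-biased and 20 female-biased output genes, 1 point per gene; the dotted line marks equal ratios. The ratio was nearer 0 in KO than in WT for 14 of 19 male-biased and 14 of 20 female-biased genes. No gene passed the interaction test, and the same count over other sex-biased genes was not made. For genes near 0 reads in males, such as Cyp2b13, the ratio follows the female level and the added 0.5.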

How the data were processed

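Liver RNAseq libraries of 24 mice (stranded TruSeq mRNA kit) were analysed. The authors deposited raw read counts per gene; per the submitters' processing notes and the study's methods these came from fastp 0.20, STAR 2.7a, featureCounts and GRCm38.p6. Annotation release, strand setting and treatment of multi-mapping reads were not given in the sources used here. Totals were 15361901 to 26261394 reads per library. Genes at 0.66 CPM or more in at least 6 libraries (12330) were fitted with 4 group means in edgeR 4.0.16 (TMM, robust quasi-likelihood, Benjamini-Hochberg; called at adjusted p under 0.05). DESeq2 1.42.0 and other settings were alternatives. On simulated mKO against mWT counts for 12330 genes, 96.5% of 200 changed genes were recovered and 4.93% of calls were false. The changed genes were drawn from those above a minimum mean level and given large changes, with a common mean in the other groups. Smaller changes were not simulated, so the share recovered does not give the power for the members. Relations used log2(CPM + 0.5), R 4.3.3 and Python 3.11.15, with 100000 permutations. GENCODE and RefSeq tables supplied positions and windows (Socs2 was not listed).

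All members were named. From each list, up to 6 called genes with the smallest p were named per contrast, or 1 where none was called; 3 genes of highest r were named for 5 members. Members and lists were chosen with earlier results of these data known, and the promoter window length was set after a shorter window had been searched. Separate mice are replicates; litter and cage were not in the labels. The list gene C4a was not matched. A few genes that this rule names are not reported here.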

Additional observations from a re-analysis of the deposited data

Results flagged for a closer look

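In each group of 6 mice the highest and lowest level of each member were compared with the next mouse, and a mouse was marked where this gap exceeded 0.625 of the group's range. Of 40 groups tested, 2 were marked, and chance marks about 1 in 20. Stat5a was at 16.7 CPM in mWT mouse 3, with the next mouse at 8.90 (gap 0.628 of the range). Bcl6 was at 30.6 CPM in fKO mouse 4, with the next at 8.99 (gap 0.857 of the range), and the same mouse had the lowest Cish of its group, at 10.04 CPM.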

How the results depend on the processing

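Calls for Cux2 and Igfals in both genotypes and for Ghr in WT held in every alternative run, and no alternative called a member for the KO or the interaction. The sex difference of Socs2 in WT was not called without a filter (adjusted p = 0.0567, edgeR), with only the 2 groups fitted (0.0506) or with the replicate block (-1.37, 0.105), and that of Igf1 in KO was lost under the same settings (0.058, 0.0715 and 0.0627). Socs2 in KO passed in DESeq2 (0.0362) and with non-robust dispersions (0.0391), and Bcl6 in WT in DESeq2 (0.0355). Near-zero values changed sign: with library totals alone, Onecut1 in males (-0.0084), Bcl6 in females (-0.042) and the Stat5b interaction (0.018) for the KO; with the replicate block, Socs2 (-0.13) and Onecut1 (-0.10) in males, Bcl6 in females (-0.024), the Stat5b (0.0063) and Socs2 (-0.089) interactions, and the Onecut1 sex difference in KO (-0.17). The cause was not tested. Same-numbered mice did not deviate together (5 of 24 correlations over 0.1, from -0.36 to 0.22), so the block is no pairing.

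Over all genes, the 26 KO calls in males became 139 in DESeq2, 2 with the Mup genes removed and 48 with only the 2 groups fitted, the 11 in females became 18 in DESeq2 and 0 with the Mup genes removed, and the 1 interaction call became 11 in DESeq2. Leaving out 1 mouse gave 19 to 59 KO calls in males (59 without mWT mouse 1, 40 without mWT mouse 2), 284 to 525 genes at an unadjusted p under 0.01, and 0 to 2 members differing in spread. It gave log2 ranges that crossed 0 as follows. The KO effect in males ranged from -0.017 to 0.092 for Ghr, -0.26 to 0.16 for Stat5a, -0.46 to 0.30 for Socs2, -0.16 to 0.014 for Igfals, -0.68 to 0.27 for Bcl6 and -0.47 to 0.25 for Onecut1. In females it ranged from -0.37 to 0.20 for Socs2, -0.64 to 0.22 for Bcl6, -0.11 to 0.31 for Cux2 and -0.30 to 0.38 for Onecut1. The interaction ranged from -0.41 to 0.0084 for Stat5a, -0.11 to 0.12 for Stat5b, -0.33 to 0.44 for Socs2, -0.025 to 0.15 for Igfals, -0.71 to 0.52 for Bcl6 and -0.52 to 0.30 for Onecut1. The sex difference ranged in WT from -0.21 to 0.21 for Stat5a, -0.17 to 0.034 for Stat5b, -0.49 to 0.049 for Cish and -0.15 to 0.44 for Onecut1, and in KO from -0.15 to 0.046 for Stat5b and -0.42 to 0.40 for Onecut1. The 4 relations kept their calls in all 24 such fits and with Spearman's rho. The interaction has no fit of only 2 groups. Among the members, depth limits only Cux2 in males.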
